A study of Homo sapiens with 18 samples.

Results

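SELENOK, SELENOS, SELENOT, SELENOI and SELENON are 5 selenoprotein genes whose products sit in or at the membrane of the endoplasmic reticulum (ER). They were chosen by gene identity, as 5 Ensembl IDs of the deposited count table, out of 58676 IDs in all. Of these IDs, 17678 passed the filter on low counts over all libraries and 16616 over the inputs alone, and all 5 members passed both. The data came from RNA immunoprecipitation sequencing (RIP-seq), in which a tagged protein is pulled from a lysate and the RNA that comes with it is sequenced beside RNA taken from the lysate before the pull-down, the input. HEK 293T cells, a human embryonic kidney line that takes up plasmids readily (the sample labels name HEK 293T, but the growth text of the same samples names HEK 293), were transiently transfected with a Flag vector as control, with Flag-SBP2, or with Flag-SBP2 and given 100 nM sodium selenite 4 h later. Lysates were harvested at 48 h, and input and anti-Flag RIP libraries of 3 replicates per treatment gave 6 groups and 18 libraries. The tagged SBP2 was overexpressed from a plasmid on top of the SBP2 the cells make, and the control lysates used here received no selenite. A comparison of selenite-treated SBP2 lysates with the control therefore holds both changes, which cannot be told apart there.

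Selenoproteins carry selenocysteine, which is encoded by UGA, a codon that otherwise ends translation. The mRNA carries a stem-loop in its 3′ untranslated region, the SECIS element, and SBP2 (SECIS-binding protein 2) binds it and helps bring the selenocysteine tRNA and its elongation factor to the ribosome. Recovery of an mRNA with SBP2 is thus a readout of binding, direct or through other factors, in the lysate. SELENOK and SELENOS are small membrane proteins that take part in ER-associated degradation of misfolded proteins, and SELENOK also works with a palmitoyl transferase. SELENOT has a thioredoxin-like fold and was linked to the oligosaccharyltransferase complex, SELENOI is the ethanolamine phosphotransferase that makes phosphatidylethanolamine, and SELENON is a glycoprotein that acts on ER calcium handling and is mutated in congenital muscle disease.

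On GRCh38.p14 in RefSeq, SELENOK (ENSG00000113811) lies on the minus strand of chromosome 3 from 53884417 to 53891859. SELENOS (ENSG00000131871) lies on the minus strand of chromosome 15 from 101270809 to 101277485. SELENOT (ENSG00000198843) lies on the plus strand of chromosome 3 from 150603321 to 150630436. SELENOI (ENSG00000138018) lies on the plus strand of chromosome 2 from 26346143 to 26395885, and its span shares 647 bases with ADGRF3, a protein-coding gene on the minus strand. SELENON (ENSG00000162430) lies on the plus strand of chromosome 1 from 25800193 to 25818221. The RefSeq table also lists 3 pseudogenes of SELENOK, 2 pseudogenes of SELENOT, and the pseudogene SAP30P1, which overlaps the SELENOT span by 1022 bases. The strand setting and the handling of reads with several matches were not given in the sources used here, so the counts of SELENOK, SELENOT and SELENOI may hold or lack reads of these neighbours and copies. Their part in the results was not tested.

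Library totals ran from 15162472 to 29887524 counts. A member was counted between 585 times (SELENOK in a control RIP library) and 28587 times (SELENON in an SBP2 RIP library), which gives counting errors of 4.13% and 0.591%. Levels are given as CPM, counts scaled to a library of 1e+06 counts with TMM factors. Levels and RIP-to-input ratios thus compare shares of libraries, and the amount of RNA held by the beads cannot be read from them. Together the 5 mRNAs made up 0.0421 ± 0.00155% of the counts in control input and 0.0449 ± 0.00108% in control RIP (SD, n = 3). In SBP2 RIP their share was 0.229 ± 0.00648%, and in SBP2 RIP with selenite 0.245 ± 0.0153% (SD, n = 3). The labels call the replicates biological, but nothing says that they were transfected on separate days.

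The Flag vector precipitation showed what the beads held without SBP2, and here the 5 mRNAs parted. As shares of the library, SELENOK and SELENOT were lower than in input, SELENOI was higher, and SELENON stood where it stood in the lysate. Tested with edgeR over all genes, 1 member was higher in control RIP than in input, against 31.5% of all genes tested, and 3 were lower, against 39.8% of all genes. Over all genes these were 5571 higher and 7039 lower, and with library size as the only scaling 6600 and 5952. The median change of the members was -0.35 on the log2 scale, beside -0.13 over all genes.

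SELENOK had 85.7, 68.9 and 59.3 CPM in the control inputs 1, 2 and 3 and 20.5, 23.4 and 17.8 CPM in the RIP libraries of the same numbers. Every RIP library was below every input, and the fall was 3.47-fold (log2 -1.79, SE 0.13, edgeR adjusted p = 4.36e-12). SELENOT had 108, 77.9 and 60.4 CPM in the control inputs and 44.1, 43.7 and 38.3 CPM in control RIP. It was the least even member among control inputs, with a coefficient of variation of 29.3%, and still its RIP libraries lay below all of its inputs (log2 -0.96, SE 0.15, edgeR adjusted p = 4.06e-06).

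SELENOS showed 63.4, 64.1 and 61.0 CPM in control inputs and 50.7, 52.9 and 44.3 CPM in control RIP. The groups did not overlap, but the difference was small, at log2 -0.35 (SE 0.08, edgeR adjusted p = 0.000644). This call rested on the processing: scaling by library size alone gave -0.17 (edgeR adjusted p = 0.073), and leaving the low-count filter out gave -0.17 (edgeR adjusted p = 0.179). SELENON, the most counted of the 5, had 150.5, 163.8 and 186 CPM in control inputs and 177, 152 and 180 CPM in control RIP. These ranges overlapped, and the change of 0.03 (95% confidence interval -0.17 to 0.22) did not pass (edgeR adjusted p = 0.812).

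SELENOI was the exception. The phosphotransferase mRNA had 65.3, 60.5 and 54.6 CPM in control inputs and 121, 138 and 138 CPM in control RIP, so that it was 2.20-fold higher on beads without SBP2 (log2 1.14, SE 0.09, edgeR adjusted p = 1.46e-11). Of all genes tested, 89.8% had a lower change in the control precipitation than SELENOI, and 9.20% had a lower one than SELENOK.

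**Figure D1:**
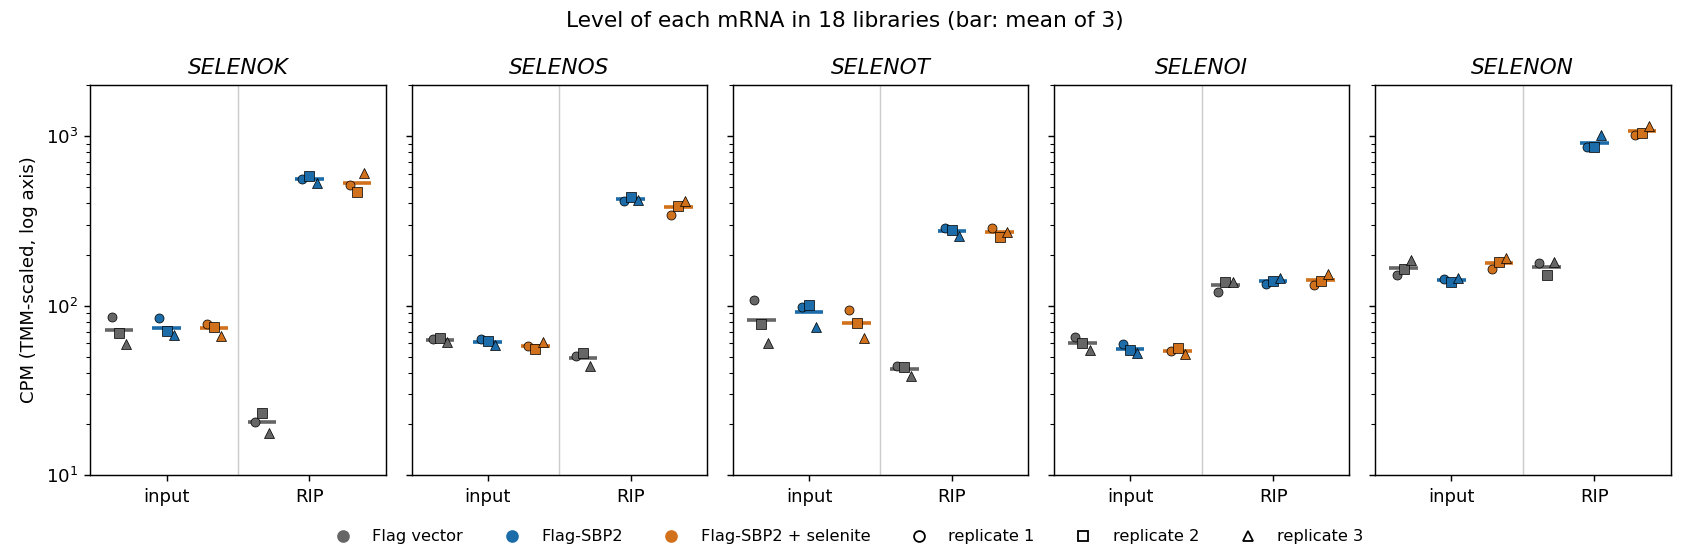
TMM-scaled CPM of each mRNA (log axis) in every input and RIP library, coloured by treatment, with the symbol giving the replicate number and the bar the mean of 3. For SELENOK, SELENOS, SELENOT and SELENON the SBP2 RIP libraries stand above every other library, while SELENOI lies between 121 and 154 CPM in all 9 RIP libraries, control included.

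With Flag-SBP2, all 5 mRNAs were higher in RIP than in input, against 30.3% of all genes that were higher and 31.7% that were lower. With selenite the count was again 5 of 5, against 30.7% of all genes that were higher and 31.6% that were lower. The members' median change was 2.68 without and 2.58 with selenite, beside -0.02 and -0.005 over all genes.

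SELENOK reached 554, 584 and 529 CPM in SBP2 RIP from 84.2, 70.8 and 67.3 CPM in the inputs of the same numbers. With selenite it reached 516, 467 and 607 CPM from 78.3, 75.1 and 66.5 CPM. Every SBP2 RIP library stood far above every input. On average SELENOK was 7.51-fold higher than in input without selenite (log2 2.91, SE 0.13, edgeR adjusted p = 1.04e-15) and 7.23-fold higher with it (log2 2.85, SE 0.13, edgeR adjusted p = 1.67e-15). Ordered by this change, SELENOK ranked 15 of 17678 genes without selenite and 11 with it.

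SELENOS, the partner of SELENOK in ER-associated degradation, had 415, 436 and 417 CPM in SBP2 RIP against 63.5, 61.4 and 58.7 CPM in input. With selenite it had 343, 386 and 416 CPM against 57.9, 55.4 and 60.9 CPM. It was 6.91-fold higher than input without selenite (log2 2.79, SE 0.09, edgeR adjusted p = 5.42e-18) and 6.57-fold higher with it (log2 2.72, SE 0.09, edgeR adjusted p = 8.65e-18). Its replicates had a coefficient of variation of 2.77% in SBP2 RIP without selenite and of 9.53% with it.

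SELENON, the calcium-handling glycoprotein, had 855, 856 and 1013 CPM in SBP2 RIP against 144, 138 and 145 CPM in input, a 6.39-fold rise (log2 2.68, SE 0.10, edgeR adjusted p = 5.63e-17). With selenite its RIP libraries held 1018, 1046 and 1150 CPM against 164, 181 and 192 CPM in input, a 5.99-fold rise (log2 2.58, SE 0.10, edgeR adjusted p = 1.01e-16). Its selenite RIP libraries lay above its RIP libraries without selenite, and so did its inputs.

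SELENOT had 287, 279 and 256 CPM in SBP2 RIP against 97.7, 100.6 and 74.8 CPM in input, and 287, 255 and 273 CPM against 93.7, 79.3 and 64.2 CPM with selenite. The rises were 3.02-fold (log2 1.59, SE 0.15, edgeR adjusted p = 1.32e-09) and 3.44-fold (log2 1.78, SE 0.15, edgeR adjusted p = 2.06e-10). These were the smallest rises but for SELENOI, which had 134, 140 and 145 CPM in SBP2 RIP against 59.4, 54.5 and 52.4 CPM in input, and 133, 140 and 154 CPM against 54.0, 56.3 and 52.0 CPM with selenite. SELENOI was 2.52-fold higher than input without selenite (log2 1.34, SE 0.09, edgeR adjusted p = 1.64e-12) and 2.63-fold with it (log2 1.39, SE 0.09, edgeR adjusted p = 8.42e-13). Set beside the control, in which SELENOT lay below input and SELENOI above it by 1.14, these rises stood on unlike backgrounds.

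**Figure D2:**
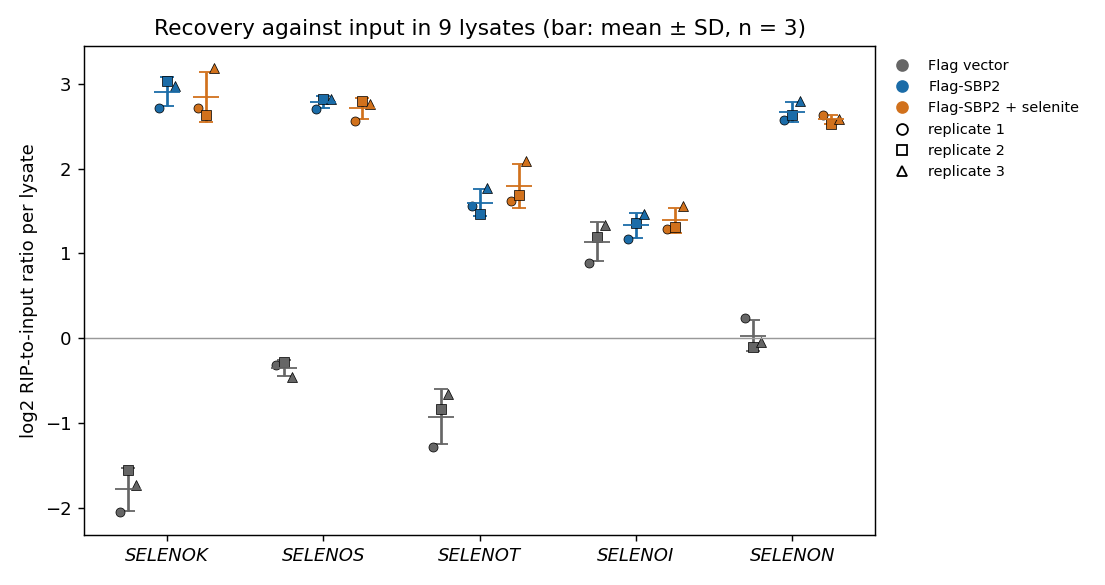
Log2 ratio of RIP to input within each of the 9 lysates, by mRNA and treatment, with the mean ± SD of 3 lysates. At 0 the mRNA had the same TMM-scaled CPM in RIP as in input, which is a share of the library and not an amount of RNA. Control lysates range from -2.06 (SELENOK) to 1.34 (SELENOI), and SELENOI is the member whose control and SBP2 lysates overlap.

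The enrichment over control set the RIP-to-input change with SBP2 against that of the Flag vector, and so asked how much of the recovery went beyond the bead background. Without selenite 4 of 5 members were enriched, against 21.7% of all genes tested, and none was depleted, against 18.1%. With selenite the same 4 were enriched, against 19.3% of all genes, and none was depleted, against 14.4%. With library size as the only scaling, the balance over all genes turned, from 3844 higher and 3201 lower to 3007 and 4368 without selenite, and from 3416 and 2540 to 2670 and 3582 with it, while the same 4 members stayed called. The members' median enrichment was 2.65 without and 2.74 with selenite, beside 0.02 and 0.03 over all genes. Both comparisons used the same 3 control lysates, so their likeness is not independent.

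SELENOK had log2 RIP-to-input ratios of -2.06, -1.56 and -1.73 in control lysates 1, 2 and 3, of 2.72, 3.04 and 2.97 in SBP2 lysates, and of 2.72, 2.64 and 3.19 in SBP2 lysates with selenite. It was enriched 26.0-fold (log2 4.70, SE 0.18, edgeR adjusted p = 2.78e-16) and, with selenite, 25.1-fold (log2 4.65, SE 0.18, edgeR adjusted p = 4.83e-16). Ordered by enrichment, it ranked 10 of 17678 genes without selenite and 8 with it. The enrichment without selenite was made up of a change of -1.79 in the control precipitation and of 2.91 in the SBP2 precipitation, so that the low place on control beads was a large part of it.

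SELENOS had ratios of -0.32, -0.28 and -0.46 in control lysates, of 2.71, 2.83 and 2.83 with SBP2, and of 2.57, 2.80 and 2.77 with SBP2 and selenite. No SBP2 lysate came near a control lysate, and the enrichment was 8.82-fold (log2 3.14, SE 0.12, edgeR adjusted p = 2.66e-16), or 8.39-fold with selenite (log2 3.07, SE 0.12, edgeR adjusted p = 5.14e-16). SELENON had ratios of 0.24, -0.10 and -0.05 in control lysates, of 2.57, 2.64 and 2.81 with SBP2, and of 2.64, 2.53 and 2.58 with selenite. It was enriched 6.28-fold (log2 2.65, SE 0.13, edgeR adjusted p = 3.75e-14) and 5.88-fold (log2 2.56, SE 0.13, edgeR adjusted p = 9.81e-14), nearly all of it from the SBP2 precipitation.

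SELENOT had ratios of -1.29, -0.83 and -0.66 in control lysates, of 1.56, 1.47 and 1.77 with SBP2, and of 1.62, 1.69 and 2.09 with selenite. Although its recovery over input was modest, its enrichment was 5.87-fold (log2 2.55, SE 0.21, edgeR adjusted p = 5.42e-10) and 6.70-fold with selenite (log2 2.74, SE 0.21, edgeR adjusted p = 2.14e-10). The ratios of these 4 mRNAs did not overlap between control and SBP2 lysates, which held for 27.3% of all genes in the higher direction without selenite and 24.4% with it.

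SELENOI did not pass. Its ratios were 0.89, 1.19 and 1.34 in control lysates, 1.17, 1.36 and 1.47 with SBP2 and 1.29, 1.31 and 1.56 with selenite, so that the groups overlapped. The enrichment was 1.14-fold without selenite (log2 0.20, 95% confidence interval -0.06 to 0.45, edgeR adjusted p = 0.219) and 1.19-fold with it (log2 0.25, 95% confidence interval 0.001 to 0.51, edgeR unadjusted p = 0.0488, adjusted p = 0.117). The upper bounds leave room for a small enrichment, far under that of the other members. Without control input replicate 3 the value with selenite was 0.32 and passed (edgeR adjusted p = 0.0482). RIP against RIP without the inputs gave 0.08 (edgeR adjusted p = 0.448) without and 0.10 (edgeR adjusted p = 0.323) with selenite.

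**Figure D3:**
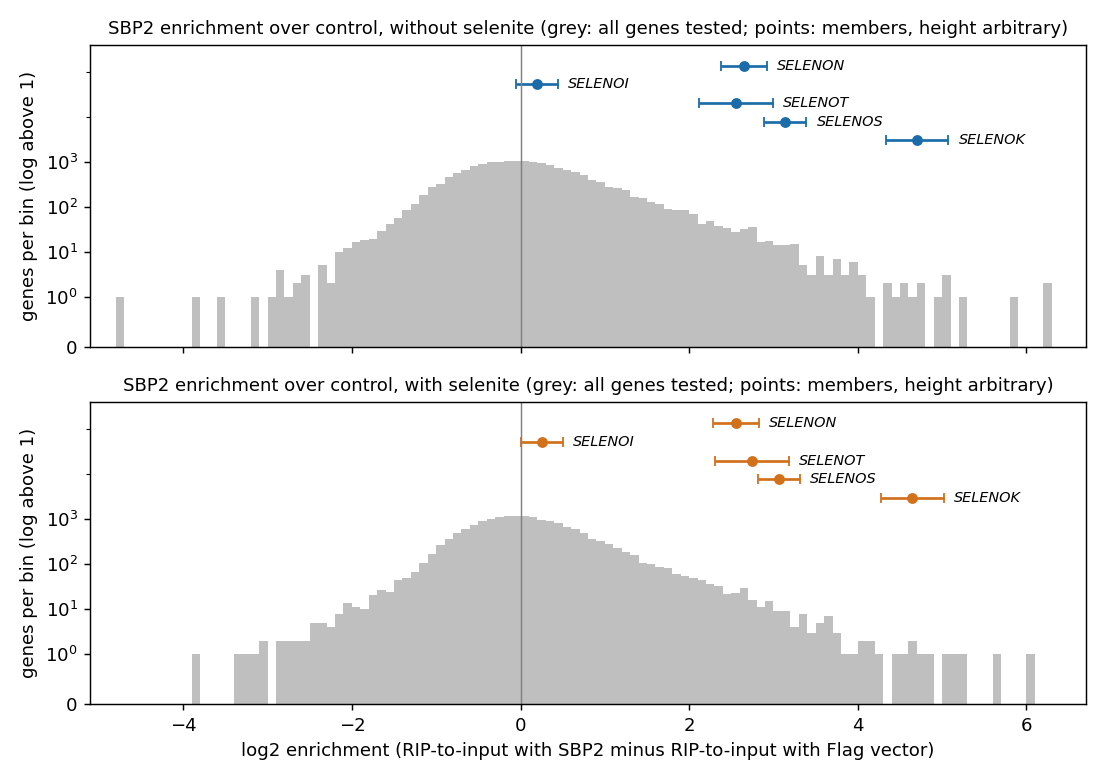
Enrichment over control (log2) without and with selenite: grey bars count all 17678 genes tested in bins of 0.1 (vertical axis logarithmic above 1), and each point with its 95% confidence interval is a member, drawn at an arbitrary height. SELENOK at 4.70 and 4.65 sits in the far right tail, SELENOS, SELENON and SELENOT lie between 2.55 and 3.14, and SELENOI lies near 0.

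Library scaling and the effect of gene length on counts cancel when the RIP-to-input ratios of 2 mRNAs are compared in the same lysate. The members could therefore be set against each other. A dependence of recovery itself on mRNA length would not cancel and was not tested. Over the 6 SBP2 lysates, with and without selenite, 10 pairs were compared with a two-sided exact paired permutation test, and 8 pairs differed after Benjamini-Hochberg adjustment (exact permutation p = 0.0312 for each of the 8, the smallest that 6 lysates allow, adjusted p = 0.0391). The test took these lysates as independent, although same-numbered SBP2 inputs with and without selenite were taken as paired. With the 3 replicate numbers as units, no pair could have reached the threshold. The order of recovery over input was SELENOK, SELENOS, SELENON, SELENOT and SELENOI. SELENOK exceeded SELENOT by 1.18 ± 0.21, SELENOI by 1.52 ± 0.13 and SELENON by 0.25 ± 0.21 (SD of log2 differences, 6 of 6 lysates each). The last of these was not called when RIP was set against the mean of all inputs (0.29, exact permutation, adjusted p = 0.0694). SELENOT exceeded SELENOI by 0.34 ± 0.13, in 6 of 6 lysates. With each lysate's own input, SELENOS and its neighbours in the order did not differ beyond their spread: SELENOK minus SELENOS was 0.13 ± 0.20 (higher in 5 of 6 lysates, exact permutation p = 0.188, adjusted p = 0.188; against the mean of all inputs 0.18, adjusted p = 0.0391), and SELENOS minus SELENON was 0.12 ± 0.13 (higher in 5 of 6 lysates, exact permutation p = 0.0938, adjusted p = 0.104).

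In control lysates the order was another one, led by SELENOI and followed by SELENON, SELENOS, SELENOT and SELENOK. SELENOK minus SELENOI, for instance, lay between -3.07 and -2.75 in the 3 control lysates and between 1.32 and 1.68 in the 6 SBP2 lysates. Each pair difference with SBP2 was therefore also set against the same difference in control lysates, a comparison added after these values were seen, with a two-sided exact permutation test of 6 against 3 lysates (exact permutation p = 0.0238 at the least, adjusted p = 0.0298). On this scale 8 of 10 pairs differed in enrichment, with the lysates again taken as independent. Pairs of other genes were not tested, so neither this count nor that over input has a share over all genes beside it. The counts therefore do not set these members apart from other genes. SELENOK was ahead of SELENOS by 1.56, of SELENOT by 2.04, of SELENON by 2.06 and of SELENOI by 4.44 on the log2 scale. SELENOI trailed SELENOT by 2.40 and SELENON by 2.37 with no overlap between control and SBP2 lysates.

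The 2 pairs that did not pass both involved SELENOT. SELENON stood above SELENOT by 0.93 ± 0.24 with SBP2 (SD, n = 6) and by 0.95 ± 0.50 in control lysates (SD, n = 3). The mean gains of the 2 mRNAs with SBP2 thus lay 0.03 apart, which did not pass (exact permutation p = 0.905, adjusted p = 0.905). The control differences ran from 0.61 to 1.53, so the test does not show that the gains were equal. SELENOS minus SELENOT was 1.05 ± 0.23 with SBP2 and 0.57 ± 0.39 in control lysates, a difference of 0.48 that did not pass (exact permutation p = 0.0714, adjusted p = 0.0794). SELENOS minus SELENON, which overlapped 0 with SBP2, passed here, by 0.51 (exact permutation p = 0.0238, adjusted p = 0.0298).

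**Figure D4:**
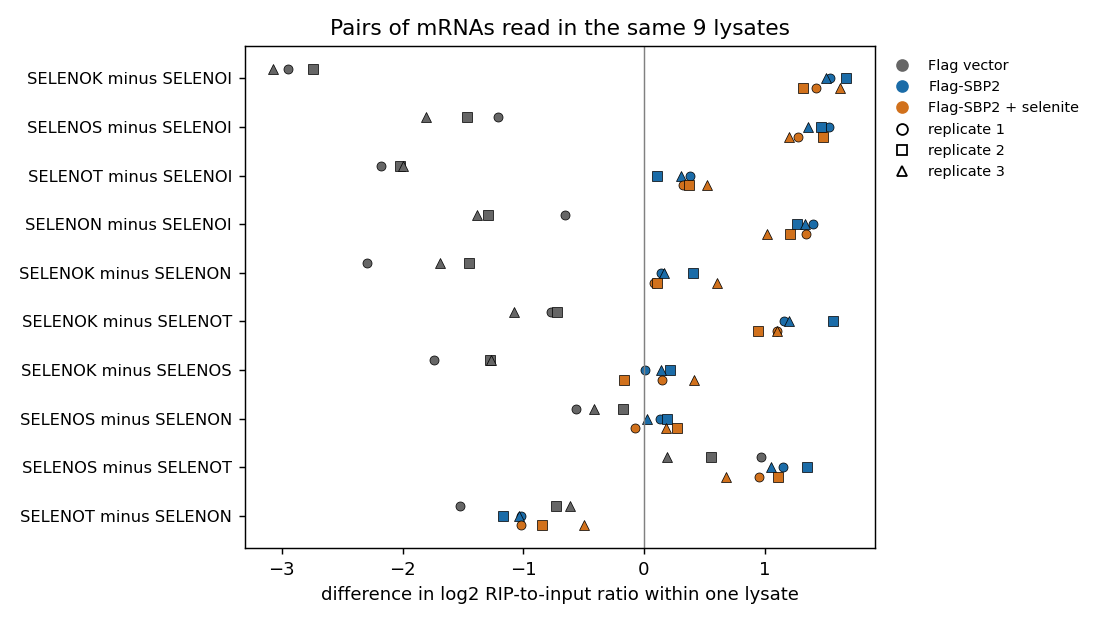
Difference between 2 mRNAs in log2 RIP-to-input ratio within each of the 9 lysates, for all 10 pairs, ordered by how far the SBP2 lysates (blue, orange) lie from the control lysates (grey). Every pair with SELENOI lies below 0 in control and above 0 in all 6 SBP2 lysates, while SELENOT minus SELENON overlaps between control and SBP2.

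Whether selenite changed the recovery of these mRNAs with SBP2 was read from the difference between the SBP2 treatments. No member passed, as no gene of 17678 did (0% called by edgeR, DESeq2 or limma voom), and 800 genes but 0 members had an unadjusted edgeR p under 0.05. Without the low-count filter edgeR called 1 gene, none of the 5. The lysate ratios overlapped between the treatments for each member; among all genes, 5.18% lay wholly higher with selenite and 7.77% wholly lower. The changes were -0.05 for SELENOK (95% confidence interval -0.40 to 0.30), -0.07 for SELENOS (-0.31 to 0.17), 0.19 for SELENOT (-0.24 to 0.62), 0.06 for SELENOI (-0.19 to 0.31) and -0.09 for SELENON (-0.37 to 0.18), each with an edgeR adjusted p of 0.995. Changes of these sizes were not detectable here, and the intervals allow a change of up to 1.54-fold for SELENOT, the least precise member. In RIP libraries alone, SELENON was 0.24 higher with selenite (edgeR unadjusted p = 0.016, adjusted p = 0.613), and its inputs were 0.33 higher.

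The inputs gave the level of each mRNA in the lysate before precipitation; in lysates of many cells, fewer cells with an mRNA and less of it per cell cannot be told apart. Flag-SBP2 against the vector gave 0 of 5 members called, against 0.879% of all genes, and the members' median change was -0.03, beside -0.009 over all genes. The largest change was in SELENON, with 150.5, 163.8 and 186 CPM in the control inputs and 144, 138 and 145 CPM with SBP2. Each SBP2 input was lower than each control input, which was seen for 13.1% of all genes, but the change of -0.23 did not pass in the model without a block (SE 0.10, edgeR unadjusted p = 0.0355, adjusted p = 0.297). SELENOK, SELENOS, SELENOT and SELENOI differed by 0.06, -0.03, 0.16 and -0.11, with unadjusted edgeR p from 0.28 to 0.708. With the replicate number as a block, the SELENON change was -0.22 and passed (edgeR adjusted p = 0.0227), and the other members did not pass. That fit called 2734 genes, or 16.5% of all. The numbers were not taken to pair these inputs, since their same-number correlations (0.0846 to 0.221) were not all over the limit of 0.1. Each was, however, above those of other numbers (0.0273 at most), and both sets of inputs were taken as paired with the selenite inputs. Whether the SELENON change passed thus depended on the use of the block, and the limit does not settle that choice.

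Selenite on top of Flag-SBP2 also gave 0 of 5 members called, against 0.00602% of all genes, that is 1 of 16616. SELENON again moved most: its inputs held 164, 181 and 192 CPM with selenite against 144, 138 and 145 CPM without, higher in each same-numbered pair and with no overlap, which held for 3.54% of all genes. The 1.26-fold difference (log2 0.33, SE 0.10) had an unadjusted edgeR p of 0.00417 and did not pass over all genes (edgeR adjusted p = 1.00). The replicate numbers paired these inputs, and with the number as a block the difference was 0.33 with SE 0.07 and passed (edgeR adjusted p = 0.0274), beside 37 called genes, or 0.223% of all. The other members changed by -0.02 (SELENOK), -0.08 (SELENOS), -0.20 (SELENOT) and -0.03 (SELENOI), and none of these passed with or without the block.

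Against the vector control, SBP2 inputs with selenite gave 0 of 5 members called, against 0.554% of all genes. The numbers paired these inputs too, and with the number as a block 1130 genes but 0 of 5 members were called. SELENON was 0.10 above the control, which did not pass (95% confidence interval -0.10 to 0.31, edgeR adjusted p = 0.777). SELENOS was lower in each input than in any control input, as were 8.58% of all genes, by a change of -0.11 that did not pass (95% confidence interval -0.30 to 0.08, edgeR adjusted p = 0.731). In these inputs the libraries of 1 number moved together for some members: replicate 3 had the lowest SELENOK, SELENOT and SELENOI values in each of the 3 treatments and the highest SELENON values. SELENOT was spread from 60.4 to 108 CPM over the 9 inputs. In this comparison its SE was 0.19 without and 0.08 with the number as a block, and its change against the control was then -0.03 (edgeR adjusted p = 0.87).

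**Figure D5:**
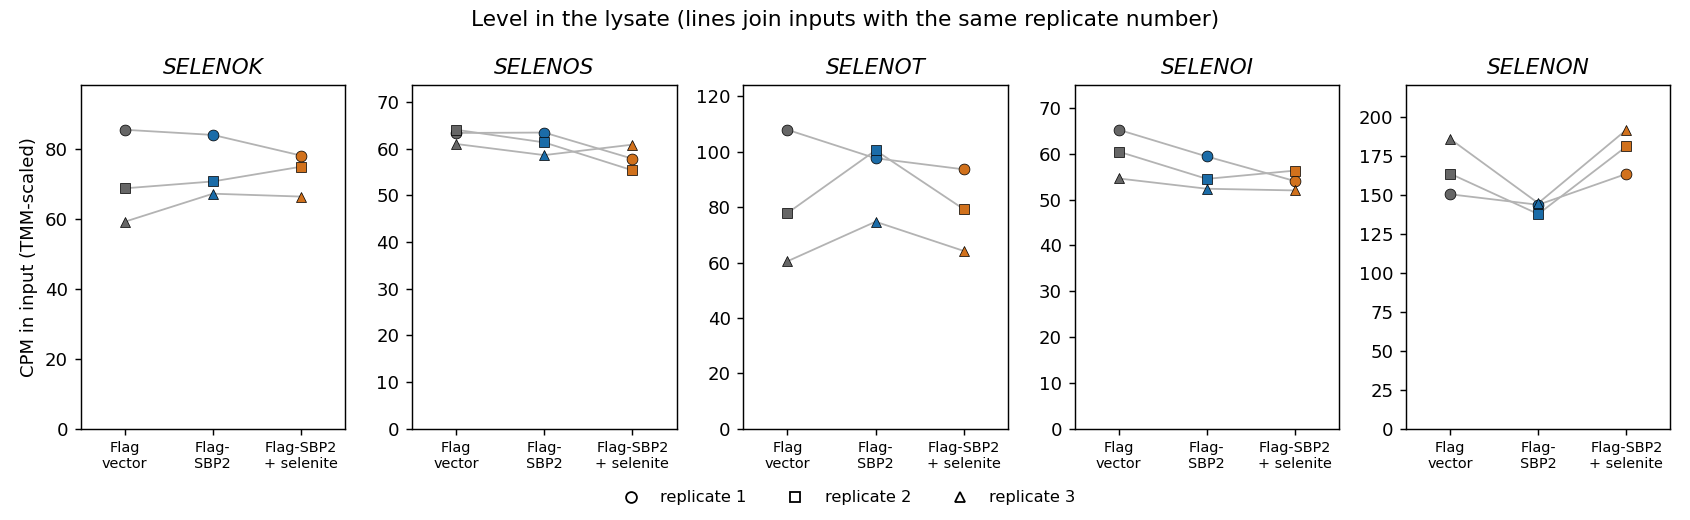
TMM-scaled CPM of each mRNA in the 9 input libraries (linear axis from 0), with lines joining inputs of the same replicate number. SELENON is lower in all 3 SBP2 inputs (138 to 145 CPM) than in control inputs (150.5 to 186 CPM) and in SBP2 inputs with selenite (164 to 192 CPM); the other members overlap between SBP2 inputs with and without selenite.

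Across the 18 libraries, log2 CPM of SELENOK and SELENOT correlated at r = 0.989 and of SELENOS and SELENON at r = 0.982, while SELENOI correlated with the others at 0.432 (SELENOK), 0.455 (SELENOT), 0.678 (SELENOS) and 0.739 (SELENON). These values describe libraries that share treatments and lysates. Likeness was ranked over 13200 other genes whose log2 CPM averaged at least 1. The highest r of such a gene was 0.994 with SELENOK, 0.998 with SELENOS, 0.9885 with SELENOT and 0.994 with SELENON. High correlations thus did not mark the member pairs alone. The closest match to any member was ENSG00000141127 to SELENOS, at r = 0.998 over 18 libraries, followed by ENSG00000101811, also to SELENOS, at 0.997. Both IDs are given as deposited, since the files do not pair IDs with names. ENSG00000141127 had 73.5 ± 7.53 CPM in control input, 61.0 ± 4.10 in control RIP and 432 ± 11.9 in SBP2 RIP (SD, n = 3), against 62.8 ± 1.60, 49.3 ± 4.47 and 423 ± 11.7 CPM for SELENOS (SD, n = 3). Its enrichment over control without selenite was 2.84 (SE 0.12, edgeR adjusted p = 1.68e-15) and that of ENSG00000101811 2.72 (SE 0.14, edgeR adjusted p = 3.72e-14), beside 3.14 for SELENOS. Both genes were picked for their likeness to SELENOS over these same 18 libraries. A similar enrichment thus followed from the choice and is no separate result.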

How the data were processed

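The table the authors deposited holds whole-number gene counts of 18 polyA RNA libraries, made with Trim Galore 0.6.6, STAR 2.7.6a and featureCounts 2.0.1 on GRCh38, per the submitters' processing notes. The sources used here give no annotation, strand or multi-mapping setting.

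The RefSeq table holds no Ensembl ID (0 of 59792 genes), so the members' symbols come with the rule that chose them, the lists by symbol (other selenoproteins, selenocysteine machinery, ER partners, HEK 293T markers) and the transfected gene were not analysed here, and no protein or SECIS sequence was used. Members and lists were chosen with earlier results of these data known.

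Counts were filtered with filterByExpr (minimum count 10, minimum total 15), scaled by TMM and tested with edgeR 4.0.16 in R 4.3.3 (quasi-likelihood, two-sided, Benjamini-Hochberg over all genes, threshold 0.05). For RIP comparisons, all 18 libraries entered a single model with a mean per group; for input comparisons, the 9 inputs did. Intervals are 95%. Lysate ratios are differences of log2 CPM (prior count 2). The edgeR fit was tested on simulated counts for some of the comparisons, and the paired permutation test was checked on made-up differences. Alternatives were other scalings and filters, DESeq2 1.42.0, limma 3.58.1 voom, other sample sets, blocks and single libraries left out. The 5 members are named throughout. The 2 genes most like each member were sought by correlation, and only those of SELENOS, which had the closest matches, are given by ID.

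Same-numbered input and RIP libraries count as a single lysate, because the protocol takes input from each sample before incubation; their deviations from group means correlated at 0.00116 to 0.195. Same-numbered inputs with selenite correlated at 0.129 to 0.314 with control inputs and 0.11 to 0.189 with SBP2 inputs, each over the limit of 0.1. They were therefore taken as paired, but the main input model held no block. The pairing entered only in the alternative fit with the number as a block.
Beside the fixed alternatives, the test of member differences against control lysates was added after the values were seen.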

Additional observations from a re-analysis of the deposited data

How the results depend on the processing

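The 4 enrichments over control passed under each of 22 alternatives, in both treatments; SELENOI passed under 1 of 22 with selenite and 0 of 22 without. Enrichment without selenite ranged from 4.55 to 4.82 for SELENOK, 2.99 to 3.18 for SELENOS, 2.31 to 2.73 for SELENOT, 0.05 to 0.26 for SELENOI and 2.42 to 2.72 for SELENON, and taking the lysate as a block changed no call of a member. Scaling by library size alone moved the median enrichment of all genes from 0.02 to -0.13 and that of control RIP against input from -0.13 to 0.06. Under the replicate-number block, the members called among inputs went from 0 to 1 for SBP2 against control and from 0 to 1 for selenite against none, SELENON in both. For SBP2 against control the numbers were not taken to pair the inputs (same-number correlations 0.0846 to 0.221, each above the 0.0273 of other numbers at most); there SELENON had -0.22 (edgeR adjusted p = 0.0227, and 0.0227 to 0.761 over 16 alternatives), and genes called over the whole table ran from 21 to 2734 around 146. For selenite against SBP2 alone they ran from 1 to 37 around 1, and for selenite against control from 23 to 1130 around 92. Leaving out 1 lysate brings the pairs of members that differ from 8 to 0, by construction, since 5 lysates cannot reach the threshold. With RIP set against the mean of all inputs, SELENOK minus SELENOS passed (0.18, exact permutation, adjusted p = 0.0391) and SELENOK minus SELENON did not (0.29, adjusted p = 0.0694).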
